A study of Mus musculus with 4 samples.

Results

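The 10 genes described here are the cyclins, cyclin-dependent kinases (CDKs) and CDK inhibitors that act in the G1 phase of the cell cycle: Ccnd1, Ccnd2, Ccnd3, Ccne1, Ccne2, Cdk4, Cdk6, Cdkn1a, Cdkn1b and Cdkn2c. They were taken by symbol from the 54532 genes of a count table, and each symbol matched 1 gene. RNA-seq was performed on purified alveolar macrophages (AMs), which reside in the airspaces of the lung, from female wild-type mice, which the methods of the study place on a BALB/c background. The control group held 2 libraries from mice given no tumor cells. The tumor group held 2 libraries from mice that had carried 4T1 tumors for 2 weeks (4T1 is a mammary carcinoma cell line of the mouse with a high rate of lung metastasis), so the comparison asks how AMs differ between tumor-bearing and tumor-free mice. Neither the number of mice behind each library nor the purity of the purified AMs is stated.

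In G1, D-type cyclins bind CDK4 or CDK6, and E-type cyclins bind CDK2. These kinases phosphorylate the retinoblastoma protein and its relatives, which releases E2F transcription factors and opens the way to DNA replication. Inhibitors of the INK4 family (p18, encoded by Cdkn2c) bind CDK4 and CDK6, whereas those of the CIP/KIP family (p21, encoded by Cdkn1a, and p27, encoded by Cdkn1b) bind cyclin-CDK complexes more broadly, and AMs are known for renewing themselves locally in the adult lung.

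The libraries held 16167147 to 19205737 counts, and a level of 3 counts corresponded to 0.153 to 0.19 CPM (counts relative to the scaled library total). The AM markers were detected in every library, but their summed level was 16406 to 16551 CPM in controls and 12549 to 12691 CPM in tumor libraries, and 12 of the 14 were lower and 1 was higher. Markers of other cells stood higher in both tumor libraries. All 12 neutrophil markers rose, from a summed 75.5 to 75.8 CPM to 4453 to 4475 CPM, with Elane at 0 in both controls. All 4 eosinophil markers rose from a summed 0.480 to 0.506 CPM to 2138 to 2156 CPM, and all 5 basophil and mast cell markers, 3 of them at 0 in controls, from 0.266 to 0.316 CPM to 50.1 to 55.2 CPM. All 8 hepatocyte markers, 6 of them at 0 in controls, rose from a summed 0.586 to 1.01 CPM to 659.4 to 659.5 CPM. Smaller sums were found for B cells (4 of 4 markers higher, 4.85 to 5.06 CPM against 10.4 to 11.2 CPM), T and NK cells (2 of 3 tested, 2.13 to 2.28 against 10.9 to 13), monocytes (3 of 4, 15.1 to 16.3 against 30.1 to 30.9), dendritic cells (2 of 4, 5.63 to 5.81 against 20.2 to 21.2) and erythroid cells (2 of 2 tested, 0.639 to 1.14 against 12.8 to 13.1). Of 4 lung epithelial markers, 2 were lower and 1 was higher, and their sum was 128.0 to 129.7 CPM in controls against 66.7 to 68.9 CPM. The study isolated AMs as CD45+ CD11b- CD11c+ SiglecF+ cells, a gate that would leave out cells without CD45, such as hepatocytes, and cells with CD11b, such as neutrophils, although its use is not spelled out for the sequenced AMs. The part of RNA from these cells in the results below was not tested, and fewer cells of a type cannot be told apart from less RNA per cell in such bulk libraries.

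Among the G1 genes, Ccnd2 and Cdk6 were lower in the tumor libraries, by 3.14-fold and 1.77-fold, and Cdkn1a was 1.27-fold lower, a fall that turned to a rise when the libraries were scaled on AM markers. Ccnd3 was 2.94-fold higher, Cdkn1b 1.39-fold higher, and Ccne1 and Ccne2 were higher by 1.72-fold and 1.64-fold from low levels. Ccnd1, Cdk4 and Cdkn2c did not pass the test. All 10 genes had enough counts to be tested with edgeR's quasi-likelihood test, and 7 passed at an adjusted p (Benjamini-Hochberg) below 0.05, 4 of them higher and 3 lower. Of all 14256 genes tested, 53.8% passed the same threshold, 29.0% higher and 24.8% lower, so the number of G1 genes called was not far from that of genes at large. The median log2 fold change was 0.18 over the 10 genes and 0.02 over all genes tested. The CPM ranges of the groups were apart for 8 of the 10 genes, 5 higher and 3 lower, and for 75.1% of all tested genes, 39.3% higher and 35.8% lower. With a change of at least 2-fold required as well, Ccnd2 and Ccnd3 were left, 1 lower and 1 higher, against 15.9% of all tested genes, 12.9% higher and 3.01% lower.

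**Figure D1:**
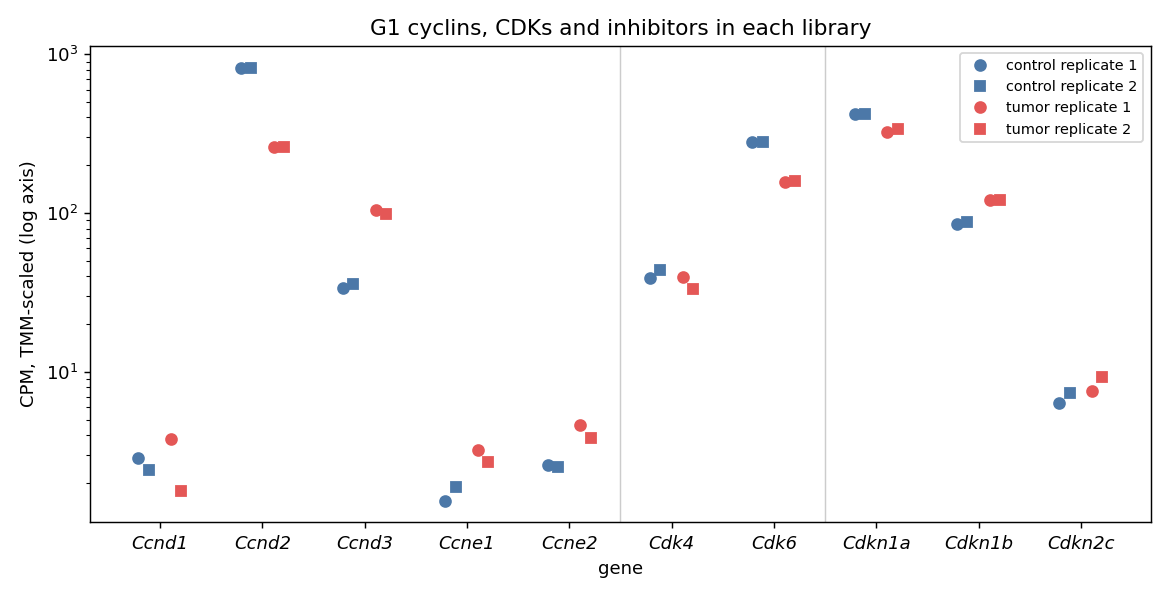
CPM of the 10 G1 genes in each of the 2 control and 2 tumor libraries, on a log axis, with 1 point per library. Ccnd2 and Cdk6 points of the tumor group lie below those of the controls, Ccnd3 and Cdkn1b points lie above, and the Ccnd1 points of the groups are interleaved.

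Ccnd2 (ENSMUSG00000000184, chr6:127125162-127152193 in GRCm38, minus strand) encodes cyclin D2, a regulatory subunit of CDK4 and CDK6. Its level was 815.1 and 824.6 CPM in the controls and 261.2 and 261.0 CPM in the tumor libraries, from 4529 counts or more in each library. The tumor libraries were both far below the controls, and the replicates of each group lay close together. The mean fell from 819.8 ± 6.73 CPM to 261.1 ± 0.17 CPM (SD, n = 2 each), a log2 fold change of -1.65 ± 0.025 (SE, edgeR adjusted p = 4.28e-28). Of all tested genes, 10.2% differed by more on the log2 scale.

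Ccnd3 (ENSMUSG00000034165, chr17:47505051-47599691, plus strand) encodes cyclin D3, which binds the same kinases. It stood at 33.8 and 35.6 CPM in the controls and at 104.2 and 99.3 CPM in the tumor libraries, so the groups were apart in the opposite direction to Ccnd2. The log2 fold change was 1.55 ± 0.0587 (SE, edgeR adjusted p = 7.49e-19), and 10.9% of tested genes differed by more.

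Ccnd1 (ENSMUSG00000070348, chr7:144929931-144939925, minus strand), which encodes cyclin D1, had low counts, with 54 and 38 counts in the controls and 66 and 35 counts in the tumor libraries. Tumor replicate 1 (3.81 CPM) was the highest library and tumor replicate 2 (1.78 CPM) the lowest, so the groups overlapped. The log2 fold change of 0.05 ± 0.296 (SE, edgeR adjusted p = 0.896) had no stable sign, since it was -0.58 without tumor replicate 1. A difference in Ccnd1 was not detected. Ccnd1 shares 1771 bases with Oraov1 on the opposite strand, which held 159 to 246 counts, so part of these few counts may come from that gene.

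On a scale divided by gene length (FPKM, that is, CPM per kilobase of the gene length given in the table), cyclin D2 transcripts made up nearly all of the D-type cyclin transcripts in control AMs. The Ccnd2 share of summed D-type FPKM was 95.1% in each control library, and 68.6% and 70.4% in the tumor libraries. The Ccnd3 share was 4.23% and 4.4% in the controls and 29.4% and 28.7% in the tumor libraries, whereas the Ccnd1 share was at most 2.00% in any library. Ccnd2 thus stayed the leading D-type cyclin in every library while the share of Ccnd3 was larger in both tumor libraries. Within a library, the ratio of Ccnd2 FPKM to Ccnd3 FPKM was 22.5 and 21.6 in controls and 2.34 and 2.45 in tumor libraries, a 9.21-fold difference between means that no scaling between libraries can alter. With the longest annotated transcript as the length, the mean ratios were 14.4 and 1.57, with the same 9.21-fold difference. The summed D-type FPKM was 91.6 ± 0.788 in controls and 39.9 ± 0.722 in tumor libraries (SD, n = 2 each), 2.29-fold lower. Unlike the ratio, this fold depends on the scaling between libraries. It also depends on the length, and was 2.04-fold with the longest annotated transcript. These shares and ratios are given without a test. An exact two-sided permutation test was not run, since it cannot go below p = 0.333 with 2 against 2 libraries.

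**Figure D2:**
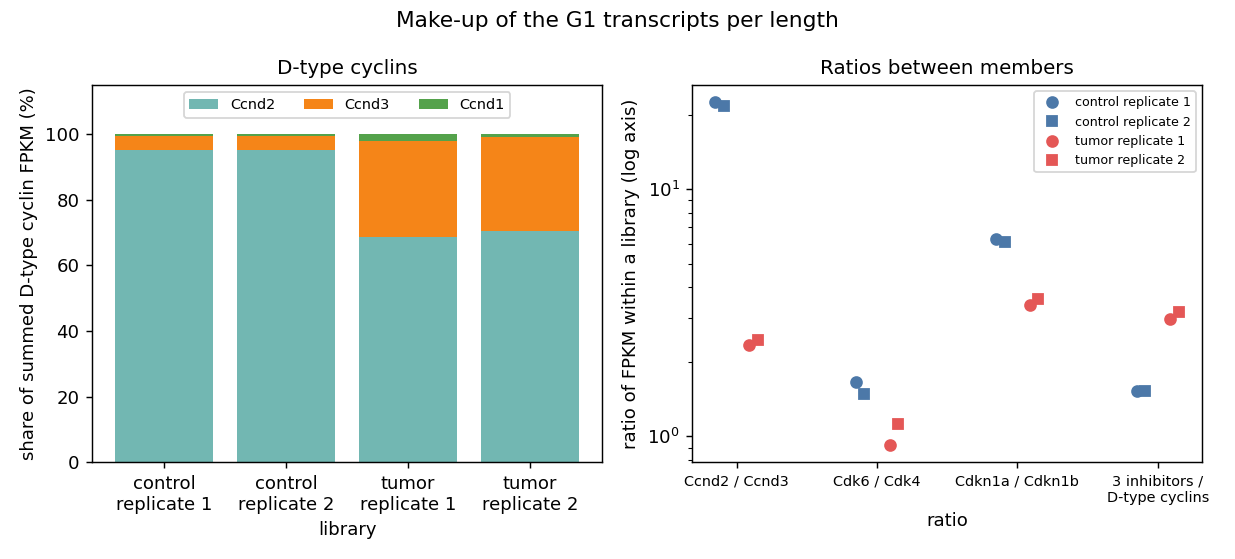
Left, share of each D-type cyclin in their summed FPKM, in percent, as 1 stacked bar for each of the 4 libraries. Right, ratios of FPKM between members within each library on a log axis, with 1 point per library: the Ccnd2 share is 95.1% in controls and 68.6% to 70.4% in tumor libraries, and the Ccnd2 to Ccnd3 ratio is 21.6 or more in controls and 2.45 or less in tumor libraries.

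Cdk6 (ENSMUSG00000040274, chr5:3341485-3531008, plus strand) encodes 1 of the kinases that D-type cyclins activate. It stood at 279.4 and 281.5 CPM in the controls and 157.5 and 159.5 CPM in the tumor libraries. Both tumor libraries lay below both controls, and the log2 fold change was -0.82 ± 0.0325 (SE, edgeR adjusted p = 2.10e-18).

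Cdk4 (ENSMUSG00000006728, chr10:127063534-127067920, plus strand), the other kinase partner of D-type cyclins, stood at 39.2 and 43.8 CPM in the controls and at 39.7 and 33.2 CPM in the tumor libraries. The groups overlapped, since tumor replicate 1 was slightly above control replicate 1. The log2 fold change was -0.19 ± 0.0840 (SE, edgeR adjusted p = 0.0619). This value moved with the libraries, to -0.28 without control replicate 1 (adjusted p = 0.0148) and -0.32 without tumor replicate 1 (adjusted p = 0.000637), which passed the threshold, and to -0.06 without tumor replicate 2. Cdk4 shares 641 bases with Tspan31 on the opposite strand, and reads from them cannot be told apart because the strandedness of counting is not stated. Tspan31 held 657 to 921 counts and fell by a log2 fold change of -0.298 (edgeR adjusted p = 0.000922). Per length, the ratio of Cdk6 FPKM to Cdk4 FPKM was 1.66 and 1.49 in controls and 0.922 and 1.12 in tumor libraries, so Cdk6 led Cdk4 in both controls and the order varied between the tumor libraries. With the longest annotated transcript as the length, Cdk6 lay below Cdk4 in both tumor libraries (0.707 and 0.856).

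Ccne1 (ENSMUSG00000002068, chr7:38097984-38107534, minus strand) and Ccne2 (ENSMUSG00000028212, chr4:11191351-11204779, plus strand) encode cyclins E1 and E2, the activators of CDK2 late in G1. Ccne1 had 29 and 30 counts in the controls and 56 and 53 in the tumor libraries, that is, 1.55 and 1.90 CPM against 3.23 and 2.70 CPM. Ccne2 had 49 and 40 counts in the controls and 81 and 75 in the tumor libraries, that is, 2.61 and 2.53 CPM against 4.67 and 3.82 CPM. For both genes the tumor libraries were above the controls. The log2 fold change was 0.79 ± 0.280 for Ccne1 (SE, edgeR adjusted p = 0.0197) and 0.72 ± 0.231 for Ccne2 (adjusted p = 0.0105). Neither call was firm. With the Wald test of DESeq2 the adjusted p was 0.147 for Ccne1 and 0.102 for Ccne2. Ccne1 was also lost without control replicate 1 (adjusted p = 0.186) or tumor replicate 1 (0.0972), and Ccne2 without control replicate 2 (0.0577) or tumor replicate 1 (0.0787). Ccne2 shares 5622 bases with Ints8 on the opposite strand, which held 568 to 974 counts and rose by a log2 fold change of 0.51 (edgeR adjusted p = 5.18e-07), so reads of these genes may be mixed.

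Among the inhibitors, Cdkn1a (ENSMUSG00000023067, chr17:29090976-29100727, plus strand), a p53 target, stood at 420.7 and 420.6 CPM in the controls and 323.9 and 340.1 CPM in the tumor libraries. Both tumor libraries were lower, and the log2 fold change was -0.34 ± 0.0284 (SE, edgeR adjusted p = 3.70e-11), but 0.12 under scaling on AM markers (adjusted p = 0.000664). Cdkn1b (ENSMUSG00000003031, chr6:134920401-134925513, plus strand), by contrast, stood at 85.7 and 88.4 CPM in the controls and 121.6 and 120.6 CPM in the tumor libraries. Both tumor libraries were higher, and the log2 fold change was 0.48 ± 0.0443 (SE, edgeR adjusted p = 3.63e-10). Cdkn2c (ENSMUSG00000028551, chr4:109660876-109667189, minus strand) stood at 6.39 and 7.34 CPM in the controls and 7.56 and 9.26 CPM in the tumor libraries. The groups were narrowly apart, but the log2 fold change of 0.30 ± 0.162 (SE) did not pass the threshold (edgeR adjusted p = 0.122), except without tumor replicate 1 (0.43, adjusted p = 0.0319) and under scaling on AM markers (0.76, adjusted p = 0.00018). Within a library, the ratio of Cdkn1a FPKM to Cdkn1b FPKM was 6.29 and 6.09 in controls and 3.41 and 3.61 in tumor libraries. With the longest annotated transcript as the length, its means were 10.6 in controls and 6 in tumor libraries.

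In order of FPKM, Cdkn1a led in both groups, at 118.4 ± 0.0281 in controls and 93.4 ± 3.22 in tumor libraries (SD, n = 2 each). Control libraries followed with Ccnd2 (87.1), Cdk6 (20), Cdkn1b (19.1), Cdk4 (12.8), Ccnd3 (3.95), Cdkn2c (2.56), Ccne2 (0.736), Ccne1 (0.647) and Ccnd1 (0.561), and the library values of Ccne1 and Ccnd1 overlapped. Tumor libraries followed with Ccnd2 (27.7) and Cdkn1b (26.6), then Ccnd3 (11.6), Cdk6 (11.3) and Cdk4 (11.2), whose library values overlapped, then Cdkn2c (3.13), the overlapping Ccne2 (1.21) and Ccne1 (1.11), and Ccnd1 (0.593). This order depends on the length used. With the longest annotated transcript, control FPKM of Cdk4 (20.2) lay at that of Cdkn1b (19.1), with overlapping library values. In tumor libraries it was then 41.2 for Ccnd2, 26.6 for Cdkn1b and 26.4 for Ccnd3, above 17.7 for Cdk4 and 13.8 for Cdk6. The summed FPKM of the 3 inhibitors over that of the D-type cyclins was 1.53 and 1.52 in controls and 2.98 and 3.19 in tumor libraries. The ratio of Ccnd2 FPKM to the summed FPKM of both E-type cyclins was 65.3 and 61 in controls and 10.9 and 13.2 in tumor libraries.

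Fold changes between the groups depend on what the libraries are scaled to. Scaling on the AM markers in place of all genes shifted the log2 fold change of the median gene by 0.46, from 0.02 to 0.48. The 14 markers did not move together under TMM scaling, with log2 fold changes from -2.13 for Fabp4 to 0.96 for Ear1. The marker scale thus rests on a set that varied by gene. The edgeR test then called 73.2% of tested genes, 67.5% higher and 5.74% lower. On that scale 7 of the 10 genes were higher and 2 lower. The direction of Cdkn1a turned, as did that of Cdk4 (0.27, adjusted p = 0.00614), and Cdkn2c was called. Ccnd2 (-1.19) and Cdk6 (-0.36) stayed lower, and Ccnd3 (2.01), Cdkn1b (0.94), Ccne1 (1.24) and Ccne2 (1.17) stayed higher, while Ccnd1 was at 0.51 and was not called.

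**Figure D3:**
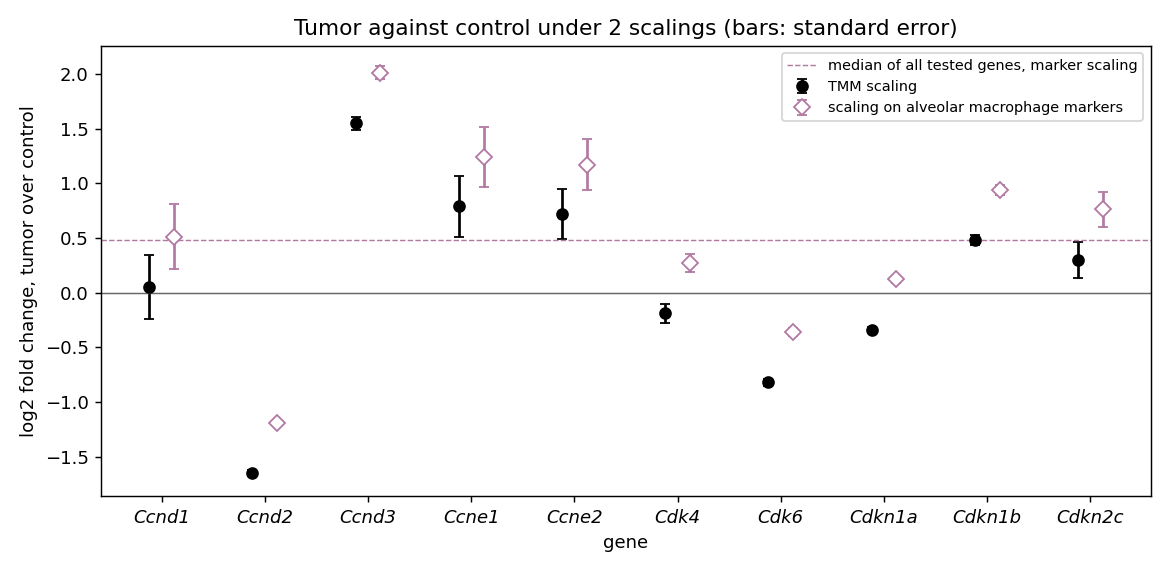
Log2 fold change, tumor over control, of the 10 genes with its standard error, under TMM scaling and under scaling on the AM markers. The dashed line is the median of all tested genes under marker scaling (0.48), and Cdkn1a and Cdk4 change sign between the scalings.

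The counts for the pathway lists that follow are to be read against all tested genes, of which 29.0% were higher and 24.8% lower under TMM scaling (median log2 fold change 0.02), and 67.5% higher and 5.74% lower under marker scaling (median 0.48). The remaining CDK inhibitors were low in controls. Cdkn2d, which encodes the INK4 protein p19, had 116 and 94 counts in the controls and 561 and 650 in the tumor libraries. It rose from 6.06 to 32.7 CPM, by a log2 fold change of 2.43 ± 0.113 (SE, edgeR adjusted p = 9.70e-17), the single rise among 3 tested inhibitors outside the 10 genes. Cdkn2a (log2 fold change -0.28, edgeR adjusted p = 0.624) and Cdkn2b (-0.43, adjusted p = 0.309) did not pass, and Cdkn1c, with at most 17 counts in any library, was not tested.

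Of 6 genes for CDK2 and the activators of G1 kinases, 1 was higher and 2 were lower under TMM scaling. With total counts as library sizes 2 were higher and 1 lower, and under marker scaling 5 were higher and 0 lower, where the list median (0.35) lay below that of all genes (0.48). Cdk2, the partner of the E-type cyclins, rose from 35.1 to 45.7 CPM (log2 fold change 0.38 ± 0.0727, edgeR adjusted p = 6.16e-05). Mnat1, a subunit of the CDK-activating kinase (-0.35), and Cdc37, a chaperone that loads kinases onto HSP90 (-0.16), were lower under TMM scaling, but their direction turned under marker scaling (0.11 and 0.30). Cdk7 (-0.20), Ccnh (-0.06) and Cdc25a (0.21) did not pass.

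Of the 13 pocket protein and E2F genes, 5 were higher and 3 lower under TMM scaling (median log2 fold change -0.12), and 11 higher and 0 lower under marker scaling, where 67.5% of all genes were higher. The list median under marker scaling (0.34) lay below that of all genes (0.48). E2f2, an activating E2F, had 125 and 114 counts in the controls and 598 and 669 in the tumor libraries, a log2 fold change of 2.31 ± 0.109 (SE, edgeR adjusted p = 1.42e-16). E2f8 (1.64, adjusted p = 2.08e-08) and E2f7 (0.89, adjusted p = 0.00735), the atypical repressing E2Fs, rose as well. E2f5, a repressing E2F named after its value was seen, fell (-0.84, adjusted p = 0.000552), and was at -0.38 and not called under marker scaling (adjusted p = 0.0809). Among 7 genes for the MuvB core, which holds cell-cycle genes silent in the DREAM complex, and for the factors it later recruits, Foxm1, such a factor, was higher (0.36, edgeR adjusted p = 0.0331) and Lin54, a core subunit, lower (-0.26, adjusted p = 0.0167), the latter turning to 0.20 under marker scaling. Neither was called with DESeq2, without control replicate 1 or without tumor replicate 1.

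Of 16 genes of S phase entry and mitosis, 5 were higher and 3 lower under TMM scaling, with a median log2 fold change of 0.17. Rrm2 (0.61, edgeR adjusted p = 1.35e-05) and Tyms (0.49, adjusted p = 0.017), which supply deoxynucleotides, and Ccna2 (0.51, adjusted p = 0.00183), the S phase cyclin, rose, from 14.9, 5.34 and 9.33 CPM in controls. The 3 that fell, named after their values were seen, were the more abundant Mki67 (134.8 to 106.9 CPM, -0.33, adjusted p = 6.46e-08), Pcna (155.5 to 134.0 CPM, -0.22, adjusted p = 3.43e-05) and Mcm3 (43.2 to 37.8 CPM, -0.20, adjusted p = 0.0399), and each turned under marker scaling. Under marker scaling all 16 were called higher, where 67.5% of all tested genes were, with a median of 0.63 beside 0.48 for all genes. With total counts as library sizes, 10 were higher and 2 lower.

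Of 9 genes for the turnover of G1 cyclins and p27, 1 was higher and 2 lower under TMM scaling, 2 were higher and 2 lower with total counts as library sizes, and 8 were higher and 0 lower under marker scaling, with a median of 0.49 beside 0.48 for all genes. Fbxo31, an F-box protein for which cyclin D1 is a known substrate, rose from 8.99 to 30.3 CPM (log2 fold change 1.76 ± 0.110, edgeR adjusted p = 7.00e-14). Ambra1, the substrate receptor for D-type cyclins (-0.32, adjusted p = 9.76e-05), and Cul1, a cullin scaffold (-0.23, adjusted p = 1.73e-05), fell under TMM scaling and stood at 0.14 and 0.23 under marker scaling.

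Of 12 transcription factors known to act on the G1 genes, 7 were higher and 2 lower under TMM scaling (median log2 fold change 0.35), beside 29.0% and 24.8% of all genes. Under marker scaling 10 were higher and 0 lower (median 0.80), beside 67.5% and 5.74% of all genes. With total counts as library sizes, and with the Wald test of DESeq2, 7 were higher and 1 lower. Foxo3, which can switch on Cdkn1b, rose from 35.8 to 110.0 CPM (1.62 ± 0.0576, edgeR adjusted p = 1.84e-19), and Foxo1 rose by 0.66 (adjusted p = 1.92e-06). Myc, an activator of cyclin and CDK genes and a repressor of Cdkn1a, had 25.6 and 24.3 CPM in the controls and 51.8 and 49.3 CPM in the tumor libraries (1.02 ± 0.0767, adjusted p = 4.71e-12). The 2 that fell, named after their values were seen, were Trp53, which encodes p53 (-0.53, adjusted p = 1.81e-08, and -0.07 and not called under marker scaling), and Zbtb17 (-0.21, adjusted p = 0.0184), which turned to 0.25. Of 13 tested p53 target genes other than Cdkn1a, 5 rose and 5 fell, against 9 higher and 3 lower under marker scaling, where 67.5% of all genes were higher and the list median (0.40) lay below that of all genes (0.48). Trp53inp1 (1.97, edgeR adjusted p = 1.02e-19) and Sesn1 (1.58, adjusted p = 8.45e-11) rose, and Phlda3 fell (-1.41, adjusted p = 3.71e-12), in both scalings.

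**Figure D4:**
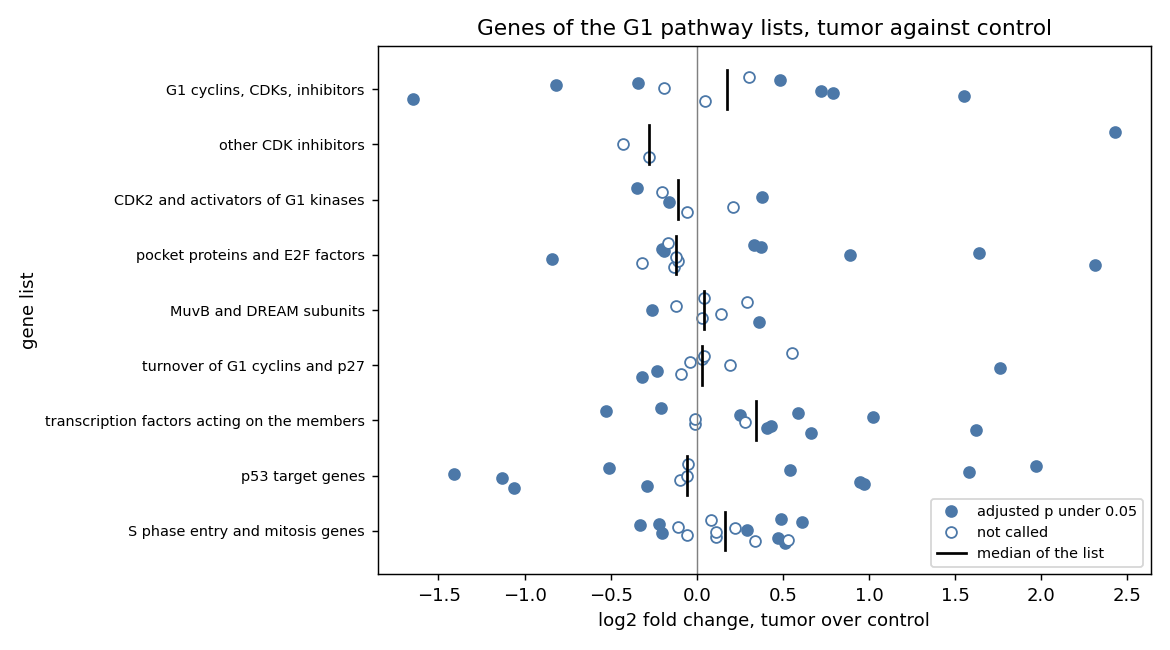
Log2 fold change, tumor over control, of the 10 G1 genes and of every tested gene of the 8 pathway lists. Each gene is 1 point, filled where the edgeR adjusted p is under 0.05, and a line marks the list median. Medians lie between -0.28 and 0.35, and the highest points include Cdkn2d, E2f2 and Trp53inp1.

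Promoter windows from RefSeq (build GRCm38.p6, 250 bases before to 50 after the start) were at hand for 7 of the 10 genes, not for Ccnd1, Ccnd2 or Ccne2, and were searched on both strands for the letters that FOXO factors (TGTTTAC) and MYC (the E-box CACGTG) are known to bind. They are shown because Foxo3 and Myc had the largest rises of the transcription factor list. Of all 32851 windows, 3.65% held the FOXO letters and 7.15% the E-box. Of the 10 windows of the G1 genes, 1 of Ccnd3 held the FOXO letters, and 1 each of Cdk4, Cdk6 and Cdkn2c held the E-box. None of the 10 held the E2F letters (TTTCCCGC, TTTCGCGC, TTTGCCGC or TTTGGCGC, in 2.26% of all windows) or the STAT letters TTCNNNGAA (8.30%). Below are the stretches outside annotated exons of 3 windows on the plus strand, chr17:47504801-47505050 for Ccnd3, chr10:127063285-127063533 for Cdk4 and chr5:3343643-3343731 for Cdk6, with matches in capitals. A match is a description of the letters, not a shown binding site.
Ccnd3: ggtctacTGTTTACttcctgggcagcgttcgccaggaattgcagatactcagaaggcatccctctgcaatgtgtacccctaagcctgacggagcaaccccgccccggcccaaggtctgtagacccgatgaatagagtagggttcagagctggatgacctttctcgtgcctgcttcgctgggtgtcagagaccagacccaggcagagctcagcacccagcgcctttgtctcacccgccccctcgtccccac
Cdk4: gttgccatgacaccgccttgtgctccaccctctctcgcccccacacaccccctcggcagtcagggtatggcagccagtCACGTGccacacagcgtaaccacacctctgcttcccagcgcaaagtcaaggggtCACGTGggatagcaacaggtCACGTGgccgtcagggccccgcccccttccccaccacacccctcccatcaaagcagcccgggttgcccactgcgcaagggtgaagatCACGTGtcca
Cdk6: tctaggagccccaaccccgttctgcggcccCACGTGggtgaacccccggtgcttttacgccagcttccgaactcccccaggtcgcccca
The FOXO letters in the Ccnd3 window begin at position -243 from the start. Cdk4, whose transcript did not pass the test, has the E-box 4 times in 1 window, and Cdk6, which fell, has it once.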

How the data were processed

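The deposited table held whole-number counts per gene for 54532 genes, 1 column per library. Per the labels and methods, RNA was extracted with TRIzol, libraries were made with a NEBNext Ultra kit, and the authors aligned paired-end HiSeq reads with HISAT2 2.0.5 and counted them with featureCounts, without normalization. Genome build, annotation, strandedness and handling of reads with several matches are not given in the sources used here. Coordinates of 98.3% of the identifiers found in GENCODE M21 were identical, so coordinates are given as GRCm38. FPKM columns of the authors were not used.

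Groups came from the sample titles. Whether replicates are separate mice is not stated, so p-values measure the spread between these libraries only, which may be technical. Counts were fitted in R 4.3.3 with edgeR 4.0.16 (filterByExpr, minimum count 10, 14256 genes kept; TMM factors 0.977 to 1.02; glmQLFit and glmQLFTest, 2 residual degrees of freedom). P-values were adjusted by Benjamini-Hochberg across the 14256 genes, and genes under 0.05 were called. The submitters' processing notes list DESeq2 without a role, and the study's methods name no differential test for the RNA-seq. CPM used TMM-scaled library sizes, and FPKM divided CPM by the gene length column in kilobases. SE is the log2 fold change over the root of the F statistic, and the SD is over 2 libraries.

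On simulated counts for the 54532 genes with 200 changed in this comparison, 89.5% were recovered and 1.10% of calls were false. The simulation gave all genes the same dispersion and changed only genes with higher counts. It also changed far fewer genes than were called in the data, so these rates do not carry over to them. The genes and lists were chosen with earlier results of these data known. All 10 G1 genes were named, and from each pathway list up to 3 genes with the largest called log2 fold change at a mean of at least 1 CPM in the higher group, with every tested gene of lists of 6 or fewer.

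Replicates correlated at 0.994 (control) and 0.992 (tumor) in log2 CPM, and groups at 0.905. Alternatives were 4 other scalings, 2 other filters, DESeq2 1.42.0, limma-voom 3.58.1, a replicate block, protein-coding genes alone, stricter thresholds, another gene length and leaving out each library. Floors of 3 counts cover counting error only, whereas the SE also holds the spread between libraries.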

Additional observations from a re-analysis of the deposited data

How the results depend on the processing

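With 2 libraries a group, every p rests on a spread shared across genes, and the cells behind the RNA of other cell types were not separated. Ccnd2, Ccnd3, Cdk6 and Cdkn1b kept their direction and call in all 10 alternative fits and in the 4 that left out 1 library, where the lone library was assumed to vary like the others. Ccnd1 turned to -0.06 with limma-voom, and ranged from -0.58 to 0.51 with 1 library left out, below 0 (-0.08) also without control replicate 2. Under scaling on AM markers, Cdk4 (0.27) and Cdkn1a (0.12) turned. Cdk4 was called lower with DESeq2 size factors (adjusted p = 0.0402), without the low-count filter (0.0316) and over protein-coding genes (0.0388). With 1 library left out, 6 to 7 of the 10 genes were called and 6515 to 7470 of all genes. DESeq2 called 5 of the 10, and 5858 of all genes. A 2-fold minimum left 2268 genes, 2 of the 10 G1 genes (Ccnd2 and Ccnd3), 2 pocket protein or E2F genes, 1 turnover gene, 2 transcription factors, 5 p53 targets, and 0 of the CDK2, MuvB and S phase lists (edgeR). Marker scaling called 5 CDK2-list, 6 MuvB, 8 turnover and 16 S phase genes, all higher, as were 67.5% of all tested genes. With total counts as library sizes, 2 MuvB genes were higher and 0 lower. Called MuvB genes were 1 without the filter, 0 with DESeq2, 0 at an adjusted p under 0.01, and 0 to 2 with 1 library left out. DESeq2 called 4 S phase genes, and leaving out 1 library called 1 to 2 other CDK inhibitors. The cause of these changes was not tested. With the length of the longest transcript instead, means in control and tumor libraries were 93.0% and 60.3% for the Ccnd2 share, 6.45% and 38.6% for the Ccnd3 share, 14.4 and 1.57 for Ccnd2 over Ccnd3, 1.21 and 0.782 for Cdk6 over Cdk4, 10.6 and 6 for Cdkn1a over Cdkn1b, 1.61 and 2.77 for inhibitors over D-type cyclins, and 75.6 and 14.4 for Ccnd2 over both E-type cyclins, with a control Ccnd1 share of 0.508%. With the replicate number as a block, 7446 genes and the same number of G1 genes (7) were called, and no G1 gene changed its call (Cdk4 adjusted p = 0.0872, Ccne1 0.0305, Ccne2 0.0154). Deviations of same-numbered libraries correlated at -0.00278 across genes, so no shared deviation was seen over genes at large. This value cannot show a pairing that acts on few genes.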

Other observations

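The other cyclin and CDK genes of the table, looked up after the values of the G1 genes were seen, included 18 tested cyclins, of which 10 were higher and 2 lower in tumor libraries (edgeR adjusted p under 0.05, median log2 fold change 0.31), and 16 tested CDKs, of which 7 were higher and 3 lower (median 0.14), beside 29.0% higher and 24.8% lower over all genes. Under scaling on AM markers, 16 of the cyclins were higher and 0 lower (median 0.77), and 14 of the CDKs were higher and 1 lower (median 0.60), beside 67.5% higher and 5.74% lower over all genes. Ccng2, an atypical cyclin known for its link to cell-cycle arrest, stood at 35.9 and 34.2 CPM in the controls and 112.3 and 114.4 CPM in the tumor libraries (log2 fold change 1.69 ± 0.0555, edgeR adjusted p = 2.96e-20). Ccnl1, a cyclin linked to splicing, rose from 532.6 to 836.4 CPM (0.65, adjusted p = 1.74e-19). The CDKs with the lowest log2 fold changes were Cdk12, which fell from 112.5 to 71.7 CPM (-0.65, adjusted p = 5.51e-12, and -0.19 under marker scaling), and Cdk14 (-0.39) and Cdk13 (-0.34), which turned to 0.07 and 0.12. The 2 cyclins that fell, Ccnyl1 (-0.54) and Ccnt1 (-0.53), were not called under marker scaling. Cdk18 was at the floor in controls, with 3 and 1 counts, and had 30 and 36 counts in the tumor libraries.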
